A study of Mus musculus with 24 samples.

Results

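Axon guidance ligands and receptors were compared between *G-Smo* and *M-Smo* medulloblastomas, and 67 of the 22180 genes with a probe set of their own belong to this group. The members were chosen by symbol alone: semaphorins of classes 3 to 7 (20 genes), plexins (9), neuropilins (2), Eph receptors (13), ephrins (8), slits (3), robos (4), netrins (3), and the netrin receptors *Dcc* and *Unc5a* to *Unc5d* (5). A probe set is the group of short probes that reads 1 transcript on the array, and a gene with several probe sets was represented by the one with the highest mean. *Ephb2* and *Ntn5* also fit the choice but were not analysed here, *Ephb2* because no probe set of its own was matched and *Ntn5* because its 2 probe sets were shared with another gene.

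Tumors came from untreated C57BL/6 mice at P15, 6 *G-Smo* and 6 *M-Smo*, with 1 Affymetrix Mouse Gene 2.1 ST array per tumor. Both genotypes carry *SmoM2*, an oncogenic allele of *Smo* that keeps Sonic hedgehog (SHH) signaling on once Cre is active. Cre comes from the *hGFAP-Cre* transgene in *G-Smo* mice, from neural stem cells onward and thus in most cells of the brain, and from *Math1-Cre* in *M-Smo* mice, in committed granule neuron progenitors. For the 12 tumors harvested 2 h after 10 Gy xRT, 0 member probe sets had values, and no result on xRT is given. All values are deposited log2 intensities, and levels of different genes were not set against each other because their probes differ.

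Axon guidance proteins steer growing axons and migrating neurons. Secreted or membrane-bound cues (semaphorins, ephrins, slits and netrins) bind receptors on the moving cell (plexins with neuropilins, Eph receptors, robos, and DCC with UNC5 proteins), and the receptors attract or repel by rearranging the cytoskeleton. In the developing cerebellum, members of several of these families act on granule neurons and their progenitors, the cells from which SHH medulloblastoma arises, and several of them also pattern blood vessels and glia.

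The labels were checked first. *Prm1*, a protamine gene whose sequence is part of the *hGFAP-Cre* transgene, read 10.32 ± 0.18 in *G-Smo* and 5.48 ± 0.23 in *M-Smo* tumors (SD, n = 6 each). The granule progenitor gene *Atoh1* read 12.14 ± 0.098 in *G-Smo* and 11.95 ± 0.22 in *M-Smo* tumors. Array medians were 6.38 to 6.42 over the 12 tumors, and correlations between tumors were 0.981 to 0.992 over all probe sets. The labels do not give the sex of the mice, and *Xist* was high in 5 of 6 *G-Smo* and 2 of 6 *M-Smo* tumors. *M-Smo* replicate 1 stood apart from the other tumors in many of the members, and several differences that it moved are given with and without it.

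Of the 67 members, limma called 3 higher and 1 lower in *G-Smo* tumors (adjusted p under 0.05). The 3 that were higher are the Eph receptors *Epha5* and *Ephb4* and the secreted semaphorin *Sema3f*, and the 1 that was lower is the ephrin *Efnb3*. The 4 make 5.97% of the members, beside 2.56% of all 41345 probe sets (1.27% higher and 1.29% lower) and 3.05% of the 22180 genes. Over all probe sets, 525 of 1057 calls were higher in *G-Smo* tumors, a split that became 430 of 1088 after quantile normalization, whereas the members stayed at 3 higher and 1 lower. No called member reached a fold of 1.5. Without *G-Smo* replicate 5 only *Epha5* was called (1 member), and without *G-Smo* replicate 6 only *Epha5* and *Ephb4* (2 members). RNA was taken from whole tumors, so fewer cells of a type and less RNA per cell cannot be told apart.

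**Figure D1:**
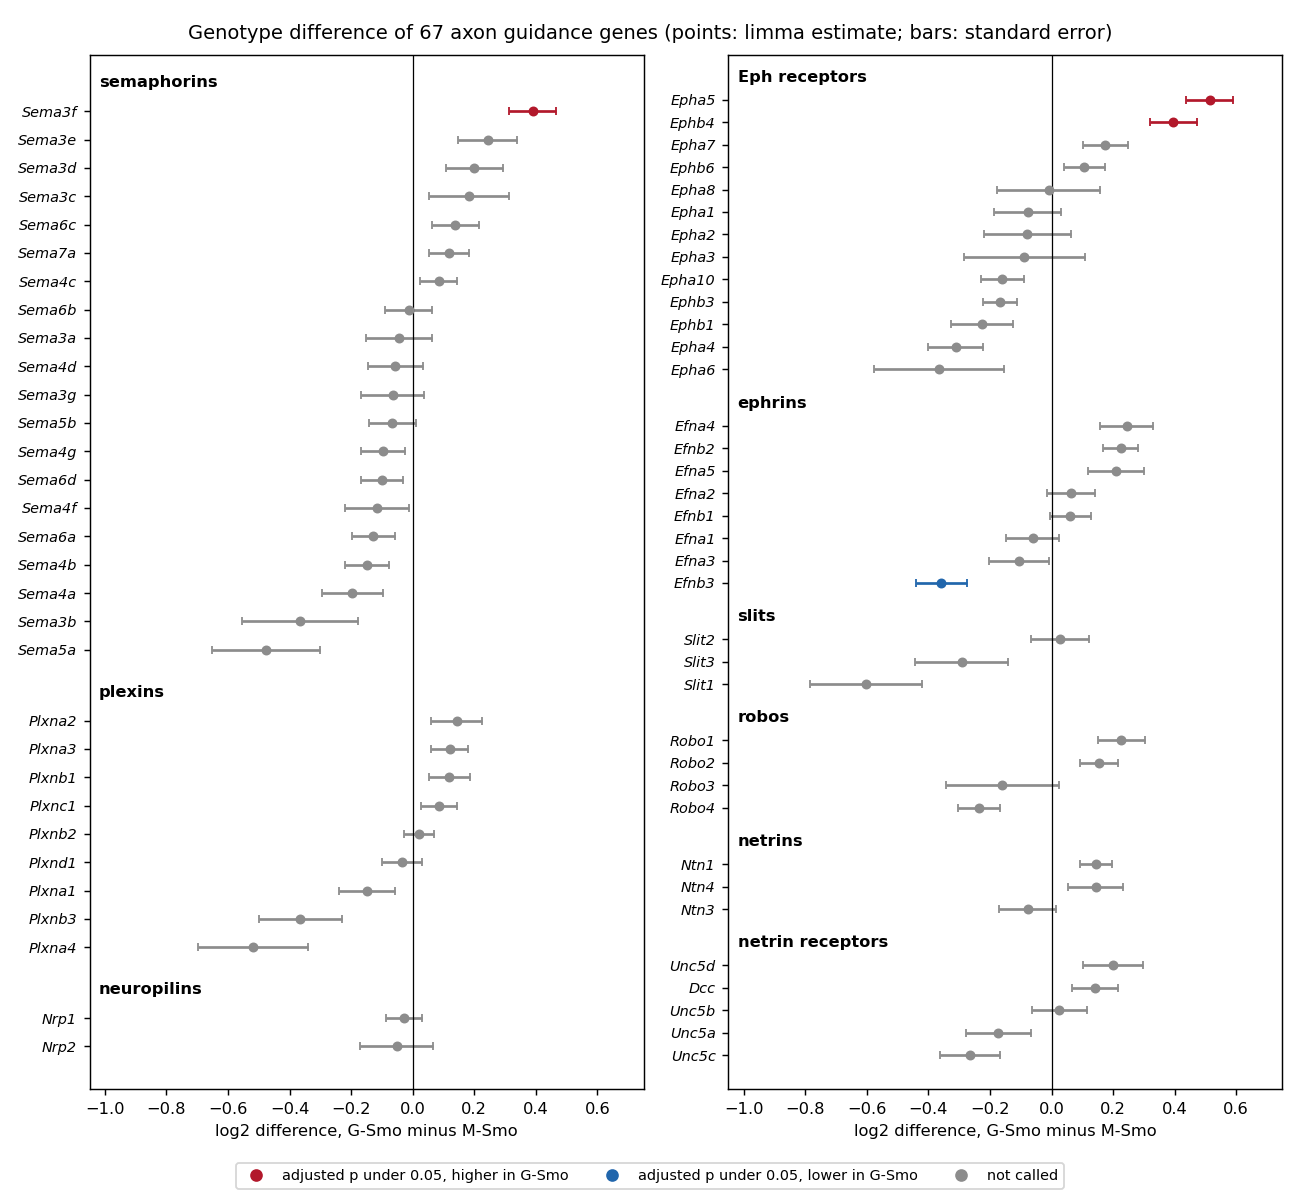
Log2 difference between 6 *G-Smo* and 6 *M-Smo* tumors (horizontal axis, *G-Smo* minus *M-Smo*) for each of 67 axon guidance genes, by family; points are limma's estimates and bars its standard errors. *Epha5*, *Ephb4* and *Sema3f* lie to the right at 0.51, 0.40 and 0.39 and *Efnb3* to the left at -0.36, while wide bars mark genes such as *Slit1*, *Plxna4* and *Epha6*.

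The other 63 members did not pass the test. At an unadjusted p under 0.05 there were 23 members (34.3%), 12 higher and 11 lower, beside 18.9% of all probe sets and 20.7% of genes. The groups did not overlap at all in 7 members (10.4%), 5 higher and 2 lower, beside 3.46% of all probe sets and 4.56% of genes. After quantile normalization the count was also 7, with 3 higher and 4 lower (3.40% of all probe sets), because *Efnb2* and *Ntn1* left it and *Efnb3* and *Plxna4* entered it. The median difference over the 67 members was -0.0445 on the log2 scale, against 0.00347 over all probe sets, and the median absolute difference was 0.143, against 0.105 over all probe sets. Differences thus ran in both directions within the group of genes, with 29 members above 0 and 38 below.

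Eph receptors and ephrins held 3 of the 4 calls. Eph receptors are receptor tyrosine kinases, and their ligands, the ephrins, are tethered to the membrane of the neighboring cell, so that contact can send a signal into both cells. Of 13 Eph receptors, 2 were higher, none was lower and 11 did not pass. Of 8 ephrins, none was higher, 1 was lower and 7 did not pass. The median difference was -0.079 for the receptors and 0.062 for the ephrins.

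*Epha5* is a receptor for A-type ephrins that helps to lay out topographic maps in the forebrain and visual system. Its log2 intensity in *G-Smo* tumors was 7.56 at the lowest, 7.73 at the median and 7.89 at the highest, and in *M-Smo* tumors 7.10, 7.15 and 7.46 in the same order. The 2 groups did not overlap, and the *M-Smo* tumor nearest to them was replicate 1. The means were 7.72 ± 0.11 in *G-Smo* and 7.21 ± 0.14 in *M-Smo* tumors (SD, n = 6 each), and the log2 difference was 0.51 (standard error 0.077, 1.43-fold, adjusted p = 0.00772; two-sided exact permutation p = 0.00216, the smallest that 6 against 6 tumors can give). The call held without each of the 12 tumors in turn, with differences of 0.48 to 0.56.

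*Ephb4* encodes the receptor for ephrin-B2 best known from veins. It read 8.44 at the lowest, 8.60 at the median and 8.84 at the highest in *G-Smo* tumors, and 8.01, 8.20 and 8.40 in *M-Smo* tumors. The groups lay apart, by a narrow gap between the lowest *G-Smo* and the highest *M-Smo* tumor. Means of 8.61 ± 0.13 in *G-Smo* and 8.22 ± 0.13 in *M-Smo* tumors (SD, n = 6 each) gave a difference of 0.40 (standard error 0.077, 1.32-fold, adjusted p = 0.0226). Without *G-Smo* replicate 5 the adjusted p was 0.0519, and once a sex-linked expression score was added as a covariate, the difference was 0.32 (adjusted p = 0.0954). The endothelial marker list ran the other way, with 1 of its 8 genes (*Cdh5*) lower and none higher. Its log2 summed level was 11.25 to 11.45 in *G-Smo* against 11.47 to 11.69 in *M-Smo* tumors. The 8 genes had a median difference of -0.20, from -0.33 for *Cdh5* to -0.04 for *Cldn5*. The list's part in the *Ephb4* difference was not tested.

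Of the called members, *Epha5* and *Ephb4* have a promoter in the RefSeq table (GRCm38.p6). SHH signaling, which is on in tumors of both genotypes, acts through GLI factors. GLI motifs were therefore looked for, and the 250 bases before each start are shown. They are *Epha5* at chr5:84417383-84417632 on the minus strand and *Ephb4* at chr5:137349859-137350108 on the plus strand, 5′ to 3′, with capitals for a match to the E-box CANNTG, the motif of ATOH1 and other basic helix-loop-helix factors:
Epha5: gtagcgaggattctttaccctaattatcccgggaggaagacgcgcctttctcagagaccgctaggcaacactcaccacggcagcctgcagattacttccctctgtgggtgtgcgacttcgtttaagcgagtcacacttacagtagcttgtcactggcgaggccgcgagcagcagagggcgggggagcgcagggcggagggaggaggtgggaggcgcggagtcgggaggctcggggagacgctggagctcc
Ephb4: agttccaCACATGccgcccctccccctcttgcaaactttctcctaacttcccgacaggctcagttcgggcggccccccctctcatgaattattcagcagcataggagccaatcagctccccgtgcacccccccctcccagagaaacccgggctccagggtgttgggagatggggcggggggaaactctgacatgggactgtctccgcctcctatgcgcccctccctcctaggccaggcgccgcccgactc
Neither window held the GLI consensus GACCACCCA or its core CCACCCA on either strand, and only that of *Ephb4* held an E-box (1 match). RefSeq gave 73 such windows for 57 of the 67 members. The consensus was in 0 of these 73, against 0.225% of 32851 windows of all genes, the core, which is part of the consensus, in 9.59% against 8.11%, and the E-box in 46.6% against 66.2%. The 7 members with the core were *Plxna2*, *Robo2*, *Sema3c*, *Sema3g*, *Sema4a*, *Sema5a* and *Sema6c*, none of them called. A match is only a string of letters, and its absence in these windows says nothing of the factor.

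*Efnb3* encodes ephrin-B3, a ligand of several EphB receptors and of EphA4 that keeps corticospinal axons from recrossing the midline in mice. In *G-Smo* tumors it read 8.35 at the lowest, 8.46 at the median and 8.74 at the highest, and in *M-Smo* tumors 8.73, 8.80 and 9.14. The groups met at 1 point, where the highest *G-Smo* tumor (replicate 4) just passed the lowest *M-Smo* tumor. The difference of means, 8.49 ± 0.14 in *G-Smo* against 8.85 ± 0.15 in *M-Smo* tumors (SD, n = 6 each), was -0.36 (standard error 0.083, 1.28-fold, adjusted p = 0.0425; two-sided exact permutation p = 0.00433). This call was the least steady of the 4. It was lost without any 1 of 11 tumors (all but *G-Smo* replicate 4; highest adjusted p = 0.0983), and without *M-Smo* replicate 1 the difference was -0.30 (adjusted p = 0.0534).

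**Figure D2:**
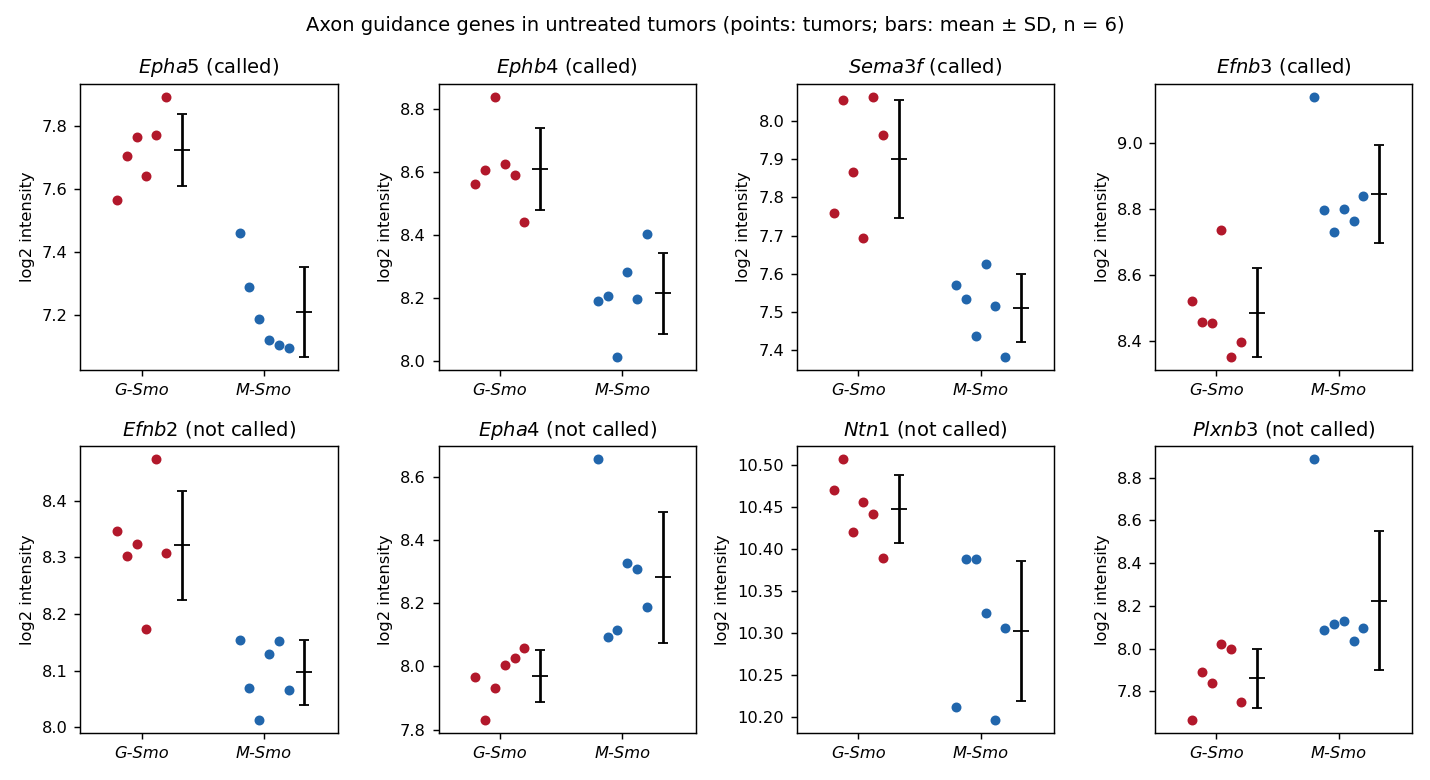
Log2 intensity (vertical axes, a separate scale for each gene) in 6 *G-Smo* and 6 *M-Smo* tumors for the 4 called genes (upper row) and 4 genes whose groups did not overlap but which did not pass the test (lower row); each point is a tumor and bars are mean ± SD (n = 6). For *Efnb3* and *Plxnb3* the topmost point of the *M-Smo* group is replicate 1, at 9.14 and 8.89.

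The partners of the called members were read beside them. For *Epha5*, the ligand *Efna5* averaged 9.17 ± 0.17 in *G-Smo* and 8.96 ± 0.15 in *M-Smo* tumors (log2 difference 0.21, adjusted p = 0.239), and *Efna3* differed by -0.11 (adjusted p = 0.597). The other A-type ephrins, *Efna1*, *Efna2* and *Efna4*, differed by -0.06, 0.06 and 0.24 (adjusted p = 0.744, 0.709 and 0.148). None of the A-type ephrins passed the test. *Efnb2*, the ligand of *Ephb4*, had groups that lay apart, 8.17 to 8.47 in *G-Smo* against 8.01 to 8.15 in *M-Smo* tumors. Its difference of 0.22 (standard error 0.056) missed the threshold at an adjusted p of 0.0559 and passed it in 5 of the other analyses and without *G-Smo* replicate 4. *Efnb1*, the remaining B-type ephrin, differed by 0.06 (adjusted p = 0.666), so that the 3 B-type ephrins had estimates on both sides of 0.

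Of the receptors for ephrin-B3, *Epha4*, *Ephb1* and *Ephb3* are described here, and they did not pass the test. *Epha4*, which also holds back axons at boundaries in the hindbrain and spinal cord, read 7.83 at the lowest, 7.99 at the median and 8.06 at the highest in *G-Smo* tumors, and 8.09, 8.25 and 8.66 in *M-Smo* tumors. Its groups lay apart, and the difference was -0.31 (adjusted p = 0.0869), or -0.24 without *M-Smo* replicate 1 (adjusted p = 0.0879). *Ephb3* differed by -0.17 (adjusted p = 0.124) and *Ephb1* by -0.23 (adjusted p = 0.243), with -0.32 (adjusted p = 0.180) for the second probe set of *Ephb1*. The widest spread of any Eph receptor was that of *Epha6*, 5.88 ± 0.18 in *G-Smo* and 6.24 ± 0.54 in *M-Smo* tumors (SD, n = 6 each). *M-Smo* replicate 1 read 7.33 there and the other *M-Smo* tumors 5.85 to 6.15, and without it the difference of -0.36 became -0.15 (adjusted p = 0.429).

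Among semaphorins, *Sema3f* was higher and 19 of 20 did not pass. Semaphorins signal through plexins, and the secreted class 3 members mostly need a neuropilin to hold the ligand. *Sema3f* encodes a secreted repellent that binds neuropilin-2. Its values were 7.69 at the lowest, 7.91 at the median and 8.06 at the highest in *G-Smo* tumors, and 7.38, 7.52 and 7.63 in *M-Smo* tumors. The groups lay apart, with means of 7.90 ± 0.15 in *G-Smo* and 7.51 ± 0.088 in *M-Smo* tumors (SD, n = 6 each), and the difference was 0.39 (standard error 0.075, 1.31-fold, adjusted p = 0.0220). The call was lost without *G-Smo* replicate 5 (adjusted p = 0.0535) or 6 (adjusted p = 0.0533), and narrowly with the sex-linked score as a covariate (adjusted p = 0.0506).

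The neuropilins, co-receptors for class 3 semaphorins and for VEGF, were close to equal. *Nrp1* averaged 8.08 ± 0.052 in *G-Smo* and 8.10 ± 0.11 in *M-Smo* tumors (difference -0.03, standard error 0.059, adjusted p = 0.847, or -0.0053 without *M-Smo* replicate 1). *Nrp2*, the neuropilin of *Sema3f*, averaged 7.61 ± 0.099 in *G-Smo* and 7.67 ± 0.29 in *M-Smo* tumors, and its difference of -0.05 (standard error 0.12) turned to 0.07 without *M-Smo* replicate 1, whose value of 8.25 lay above the 7.50 to 7.61 of the other *M-Smo* tumors. Neither sign passed the test (adjusted p = 0.856 and 0.607).

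*Sema5a* and *Plxnb3* encode a transmembrane semaphorin with thrombospondin repeats and a plexin that binds it. *Sema5a* read 7.57 at the lowest, 8.02 at the median and 8.50 at the highest in *G-Smo* tumors, and 8.21, 8.36 and 9.19 in *M-Smo* tumors. The groups overlapped, and the difference was -0.48 (standard error 0.18, adjusted p = 0.165), or -0.34 without *M-Smo* replicate 1. *Plxnb3* read 7.67, 7.86 and 8.02 in *G-Smo* tumors, and 8.03, 8.11 and 8.89 in *M-Smo* tumors. The groups lay apart by a small margin, and the difference of -0.36 (adjusted p = 0.166) was -0.23 without *M-Smo* replicate 1 (adjusted p = 0.117). *Plxna4*, a receptor for class 3 and class 6 semaphorins, averaged 7.28 ± 0.24 in *G-Smo* and 7.80 ± 0.41 in *M-Smo* tumors (difference -0.52, adjusted p = 0.140), or -0.36 without *M-Smo* replicate 1 (adjusted p = 0.129). *Sema3b*, a secreted semaphorin, was the most variable semaphorin in *M-Smo* tumors, at 5.99 ± 0.49 there and 5.63 ± 0.12 in *G-Smo* tumors (difference -0.37, adjusted p = 0.315, or -0.22 without *M-Smo* replicate 3).

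None of the 9 plexins passed, and their median difference was 0.021. *Plxnb2*, which in mice is needed for normal development of granule cell precursors, averaged 11.71 ± 0.068 in *G-Smo* and 11.69 ± 0.037 in *M-Smo* tumors (difference 0.02, standard error 0.048, adjusted p = 0.859). *Sema6a* and its receptor *Plxna2*, which guide granule cell migration in mice, differed by -0.13 (adjusted p = 0.338) and 0.14 (adjusted p = 0.369). *Plxnb1* had 2 probe sets that differed in sign, 0.12 and -0.09, and neither passed.

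Slits are secreted repellents, and robos are their receptors. None of the 3 slits and 4 robos passed the test. *Slit1* had the lowest difference of the 67 members, -0.60 (standard error 0.18, 1.52-fold, adjusted p = 0.101), or -0.51 without *M-Smo* replicate 1. It read 6.92 at the lowest, 7.37 at the median and 7.96 at the highest in *G-Smo* tumors, and 7.55, 7.95 and 8.42 in *M-Smo* tumors. Both groups were wide (SD 0.37 in *G-Smo* and 0.32 in *M-Smo* tumors) and overlapped, chiefly through *G-Smo* replicate 4, without which the difference was -0.72 (adjusted p = 0.0475). *Slit3* differed by -0.29 (adjusted p = 0.318), or -0.19 without *M-Smo* replicate 1.

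*Robo1* and *Robo2*, the receptors through which slits repel axons, differed by 0.23 (adjusted p = 0.136) and 0.15 (adjusted p = 0.206). *Robo4*, the robo of blood vessels, averaged 7.24 ± 0.11 in *G-Smo* and 7.48 ± 0.12 in *M-Smo* tumors (SD, n = 6 each; difference -0.24, standard error 0.069, adjusted p = 0.0927). The summed endothelial level was also lower in every *G-Smo* tumor (11.25 to 11.45 in *G-Smo*, 11.47 to 11.69 in *M-Smo* tumors). Of its 8 genes, 1 was called, and *Pecam1* and *Cldn5* differed by only -0.07 and -0.04 (adjusted p = 0.582 and 0.837). The part of these genes in the *Robo4* difference was not tested. *Robo3*, a receptor of axons that cross the midline, had the widest spread of the 4, with 7.27 ± 0.34 in *G-Smo* and 7.43 ± 0.36 in *M-Smo* tumors (difference -0.16, adjusted p = 0.686, and -0.28 to -0.07 with 1 tumor left out).

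Netrins attract axons through DCC and repel them when UNC5 receptors take part. None of these 8 members passed the test. *Ntn1*, the founding attractant of the floor plate, read 10.39 at the lowest, 10.45 at the median and 10.51 at the highest in *G-Smo* tumors, and 10.20, 10.31 and 10.39 in *M-Smo* tumors. The groups just failed to touch, and the difference was small, 0.14 (standard error 0.051, adjusted p = 0.152). *Ntn4*, a netrin of basement membranes, differed by 0.14 (adjusted p = 0.412) and *Ntn3* by -0.08 (adjusted p = 0.697).

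*Dcc* differed by 0.14 (standard error 0.075, adjusted p = 0.331). *Unc5c*, whose loss in mice misplaces cerebellar granule cells, read 10.07 at the lowest, 10.15 at the median and 10.40 at the highest in *G-Smo* tumors, and 10.16, 10.43 and 10.71 in *M-Smo* tumors. The groups overlapped, and the difference was -0.27 (standard error 0.097, adjusted p = 0.164). *Unc5d* differed by 0.20 (adjusted p = 0.296, or 0.12 without *M-Smo* replicate 4) and *Unc5a* by -0.17 (adjusted p = 0.400), and without *M-Smo* replicate 1 the difference of *Unc5a* was -0.08. The UNC5 receptors thus had estimates on both sides of 0, and none was called.

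Spread within a genotype was larger in *M-Smo* tumors for 47 of the 67 members (70.1%), beside 60.3% of all probe sets. The median SD of the members was 0.116 in *G-Smo* and 0.153 in *M-Smo* tumors, against 0.154 and 0.176 over all probe sets. *M-Smo* replicate 1 had the highest value of the 12 tumors in 22 members (32.8%), beside 10.6% of all probe sets. No other tumor was highest in more than 10 members (*G-Smo* replicate 5, 14.9%).

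**Figure D3:**
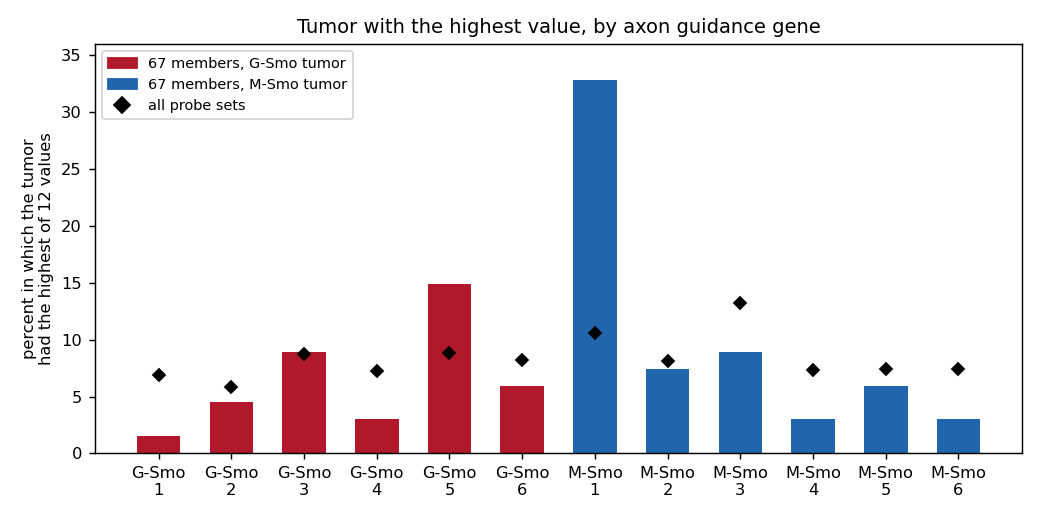
Percent of the 67 axon guidance genes (bars) and of all 41345 probe sets (diamonds) in which each of the 12 tumors had the highest log2 intensity. The bar of *M-Smo* replicate 1 stands at 32.8% and its diamond at 10.6%.

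The 22 members include all 3 slits, both neuropilins, 8 semaphorins (such as *Sema5a* and *Sema4a*), 3 plexins, 3 Eph receptors, *Efnb3*, *Unc5a* and *Unc5b*. The distance to the next *M-Smo* tumor was 1.19 on the log2 scale for *Epha6*, 0.78 for *Plxna4*, 0.76 for *Plxnb3*, 0.64 for *Nrp2* and 0.60 for *Sema5a*, and 0.49 or less for the others. In *Plxna4*, replicate 1 read 8.61 and the other *M-Smo* tumors 7.50 to 7.83. Not all differences shrank without replicate 1. That of *Sema3c* went from 0.18 to 0.29 (adjusted p = 0.155 without it). The difference of *Sema3d* went from 0.20 to 0.27 (adjusted p = 0.0927 without it), whereas that of *Sema4a* shrank from -0.20 to -0.11.

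Myelin markers were also highest in this tumor. The log2 summed level of 5 genes of myelinating oligodendrocytes was 12.63 in *M-Smo* replicate 1, above the 11.05 to 11.71 of the remaining *M-Smo* tumors, and that of 5 oligodendrocyte precursor genes was 12.79, against 12.52 to 12.68. The myelin level of this tumor is not among the values flagged below. Its summed level of 6 granule progenitor genes was the lowest of all tumors, at 13.91, against 13.95 to 14.13 in the remaining *M-Smo* tumors. The part of these marker levels in the members' values was not tested.

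**Figure D4:**
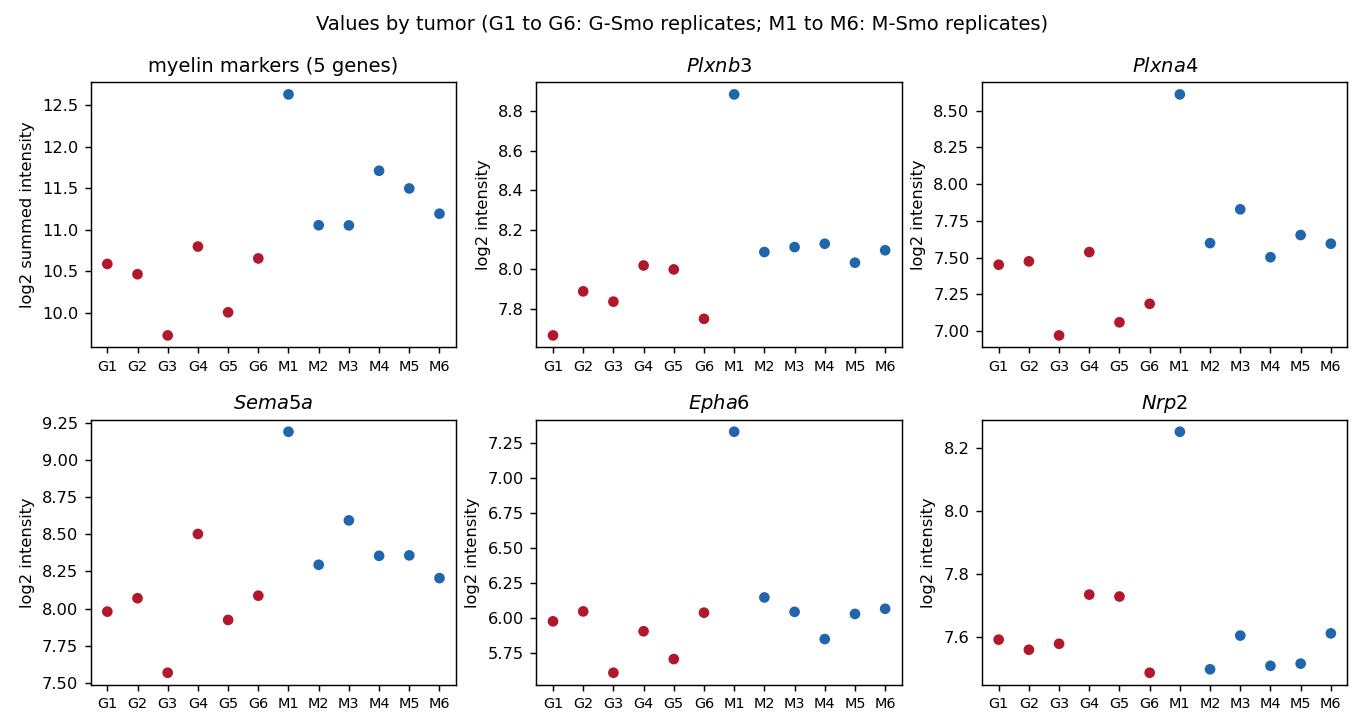
Log2 summed intensity of 5 myelin marker genes and log2 intensity of 5 axon guidance genes (vertical axes, separate scales) in each tumor (G1 to G6, *G-Smo* replicates; M1 to M6, *M-Smo* replicates). In every panel the highest point is M1, at 12.63 for the myelin markers and 8.89 for *Plxnb3*. The 5 genes are those in which M1 lay farthest above the next *M-Smo* tumor, so its place in their panels was set by that choice.

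Markers of other cell types also differed between the genotypes, beside all the members above. Of 5 measured myelin genes, 4 were lower and none higher, with a summed level of 9.73 to 10.80 in *G-Smo* and 11.05 to 12.63 in *M-Smo* tumors. Of 8 genes of fibroblasts and meninges, 7 were lower, with 10.42 to 10.97 in *G-Smo* and 11.26 to 11.61 in *M-Smo* tumors. Of 6 astrocyte genes, 3 were lower, with 13.38 to 13.58 in *G-Smo* and 13.57 to 13.81 in *M-Smo* tumors. Oligodendrocyte precursor, pericyte, microglia, Purkinje cell, granule progenitor and differentiating granule neuron lists held 0 calls. A list with 0 calls can still differ in level. The precursor level was 12.34 to 12.53 in *G-Smo* and 12.52 to 12.79 in *M-Smo* tumors. That of granule progenitors was 14.05 to 14.18 and 13.91 to 14.13, and that of microglia 10.13 to 10.59 and 10.28 to 10.51, in the same order. The part of all these lists in the members' differences was not tested.

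The wider pathway was read from a list of 72 co-receptors, other ligands and signaling proteins, 69 of them measured. None was higher, 4 were lower and 65 did not pass. The share called was 5.80%, beside 2.56% of all probe sets (1.29% lower) and 3.05% of genes. The median difference of the list was -0.0206. Only 1 was called without *G-Smo* replicate 5, and 2 without *G-Smo* replicate 1, 2, 3 or 6 or *M-Smo* replicate 6. *Cxcl12*, the meningeal chemokine that holds granule progenitors at the cerebellar surface, was lower by 0.42 on the log2 scale, at 8.82 ± 0.15 in *G-Smo* and 9.24 ± 0.062 in *M-Smo* tumors (adjusted p = 0.0116), whereas its receptor *Cxcr4* differed by -0.01 (adjusted p = 0.981). *Chl1*, an L1-family adhesion molecule that serves as a semaphorin co-receptor, differed by -0.38 (adjusted p = 0.0226). *Dscam*, a netrin receptor, differed by -0.44 (adjusted p = 0.0291), and *Chn1*, the Rac-inactivating chimaerin downstream of EphA4, by -0.40 (adjusted p = 0.0342). Downstream of the receptors, 0 of 11 shared kinases and adaptors, 0 of 13 semaphorin signaling proteins and 0 of 5 slit signaling proteins were called. With 3.05% of all genes called, lists this short are too small to read a lack of calls as a result.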

How the data were processed

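RNA of 6 untreated *G-Smo* and 6 untreated *M-Smo* tumors was measured on Affymetrix arrays, 1 per tumor. The authors deposited log2 intensities of probe sets, made by RMA, which corrects background, equalizes the arrays' distributions and summarizes probes, and the submitters' processing notes also name Partek. No version and no genome build for the probe sets is given in the sources used here. Values were used as deposited, with no filter. The platform annotation gave 1 symbol to 23521 of 41345 probe sets, several to 1820 and none to 16004.

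Genotypes were compared with limma 3.58.1 (lmFit and eBayes, R 4.3.3), two-sided, with Benjamini-Hochberg adjustment over 41345 probe sets and a threshold of 0.05. Differences are *G-Smo* minus *M-Smo*. Exact permutation tests ran over 924 assignments. The steps were tested on simulated data. Array data have no depth of counts, so precision rests on how many arrays there are and on the spread of each probe set. A marker list's summed level is the log2 of its genes' summed intensities. The sex-linked score is *Xist* minus the mean of *Eif2s3y*, *Kdm5d* and *Uty*. Promoters and motifs were read with Python 3.11.15 from RefSeq, and figures were drawn with matplotlib 3.10.9. *Pcp2* and *Ddx3y* had no probe set of their own.

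The members and lists were chosen with earlier results of these data known. Named members are those called, the 2 of smallest p and the one of widest spread in each family, partners of called members, and called pathway genes. *Cxcr4*, *Dcc*, *Efna1*, *Efna2*, *Efna4*, *Plxna2*, *Plxnb1*, *Plxnb2*, *Robo2*, *Sema3d*, *Sema4a*, *Sema6a*, *Unc5b* and the genes with a GLI core were named after their values had been seen. Alternatives were a filter at the 40th percentile, quantile normalization, median centring, other probe set choices, limma's trend and robust settings, array weights, the methods' test per probe set, the replicate number as a block, the sex-linked score, other thresholds and leaving out each tumor.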

Additional observations from a re-analysis of the deposited data

Results flagged for a closer look

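Among 29 named members and 10 summed marker lists examined in both genotypes (78 groups of 6 tumors), 7 values stood farther from the rest of their group than Dixon's critical value for 6 samples allows. Chance gives about 1 in 20 independent groups chosen beforehand, a rate that cannot be applied here. Most members were named from these same values, by call, smallest p or widest spread (*Epha6* and *Ntn3* by the last). The groups also share the same 12 tumors, so they are not independent. Of the 7, 5 were in *M-Smo* replicate 1. *Plxnb3* read 8.89 there, against 8.03 to 8.13 in the remaining *M-Smo* tumors, *Nrp2* 8.25 against 7.50 to 7.61, *Epha6* 7.33 against 5.85 to 6.15, *Plxna4* 8.61 against 7.50 to 7.83, and *Efnb3* 9.14 against 8.73 to 8.84. The other two were low values of netrins. *Ntn4* read 9.51 in *G-Smo* replicate 2, against 9.70 to 9.77 in the other *G-Smo* tumors, and *Ntn3* read 7.41 in *M-Smo* replicate 4, against 7.54 to 7.59 in the rest of its group.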

How the results depend on the processing

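The count of called members, 4, became 7 with a filter at the 40th percentile (*Efnb2*, *Epha4* and *Robo4* added, *Epha1* filtered out, 1881 of 24807 probe sets called) and 7 at an adjusted p under 0.1 (2370 probe sets). It became 2 with the sex-linked score (*Epha5* and *Efnb3*, 420 probe sets), 1 at an adjusted p under 0.01 (*Epha5*, 152 probe sets) and 0 with a fold of at least 1.5 (260 probe sets). With 1 tumor left out it was 1 to 6 (1 without *G-Smo* replicate 5, 2 without *G-Smo* replicate 6), and over all probe sets 367 to 942, against 1057 with all tumors. Called pathway neighbors, 4, were 1 to 5 with 1 tumor left out (1 without *G-Smo* replicate 5, and 2 without *G-Smo* replicate 1, 2, 3 or 6 or *M-Smo* replicate 6). Members whose groups did not overlap, 7, were 6 or 7 under median centring, quantile normalization, the filter and the lowest-mean probe set (3.34%, 3.40%, 5.37% and 3.46% of all probe sets tested), and 7 to 10 with 1 tumor left out (3.85% to 5.09%). The methods' test called 4 members, with *Efnb2* in place of *Efnb3* (adjusted p = 0.0511). With the replicate number as a block, 0 members, 0 pathway neighbors and 113 probe sets were called, and the 4 called members had adjusted p-values of 0.0726 to 0.124. Deviations of same-numbered tumors had correlations of -0.138 to 0.114, and those of the other pairs -0.177 to 0.223. The labels do not say what the numbers stand for, and these correlations cannot show that same-numbered tumors share nothing. Of 640 recomputed differences of named members, 609 kept direction and side of the threshold, 21 lost a call, 9 gained one and 1 reversed (*Nrp2*, -0.0853 to 0.0654 with 1 tumor left out, positive only without *M-Smo* replicate 1). Causes were not tested.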
